A study of Homo sapiens with 6 samples.

Results

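The kinases of the MAP kinase cascade were taken as all genes whose symbol is MAPK, MAP2K, MAP3K or MAP4K followed by a number. This gave 33 genes among the 10779 genes of 2 deposited data sets, 9 MAPK, 7 MAP2K, 13 MAP3K and 4 MAP4K genes. Of these, 21 had a translational efficiency among 8121 genes, 29 had a ribosome occupancy along their transcript among 9570 transcripts, and 17 had both. The data are ribosome profiling of HEK293 cells, an established human embryonic kidney line, all treated with Control siRNA, in 3 RPF (ribosome-protected fragment) libraries and 3 total RNA libraries made from the same lysates with replicate numbers 1 to 3. According to the study's methods, the living cells were treated briefly with cycloheximide, then washed and lysed in its presence. There is no second condition, so the comparisons below are between genes. Nothing in the labels says that the 3 replicates were separate cultures, and p-values then measure only the spread between these samples.

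A MAP kinase cascade passes a signal through consecutive kinases. A MAP3K, in some pathways acted on by a MAP4K, phosphorylates a MAP2K, and the MAP2K phosphorylates both a threonine and a tyrosine in the activation loop of a MAPK. The MAPKs fall into the ERK kinases, such as MAPK3 (ERK1), which respond mainly to growth factors, the JNK (MAPK8 and MAPK9) and p38 (MAPK11, MAPK12 and MAPK14) kinases, which respond mainly to stress and cytokines, ERK5 (MAPK7) and atypical members such as MAPK6 (ERK3).

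Translational efficiency relates the RPFs of a gene to its total RNA, as a linear ratio. The ribosome occupancy is the number of in-frame RPFs at a codon, normalised to library size and divided by the abundance of the mRNA, so that values per codon can be set side by side between genes. All 6 markers looked for in the HEK293 line (VIM, NEFL, NEFM, INA, KRT8 and KRT18) were listed in both tables. In that order their mRNA levels were 21.9, 18.9, 16.3, 0.0923, 0.438 and 2.76 times the median transcript, so INA and KRT8 were below it. PTPRC, ALB and MYOD1 of blood, liver and muscle were in neither table. COL1A1 was also listed in both, with an mRNA level of 0.0430 times the median transcript.

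The translational efficiencies of the cascade kinases spanned a 35.0-fold range, from MAP3K4 to MAP2K1. Across the 21 genes, 5 were higher than the median of all genes, 11 were lower and 5 did not pass the test (limma on log2(value + 0.01), FDR of 0.05). Over all genes 44.7% were called higher and 44.6% lower, 89.3% in all, with correlations of 0.987 to 0.990 between the replicates. Over all genes both directions were thus called about equally often, while 5 kinases were higher and 11 lower. These counts are small and were not tested against the shares of all genes, so the sizes below carry the description. The median translational efficiency of the cascade kinases was 0.330, and that of all genes was 0.385. Of 21 kinases, 7 lay above the median gene. By tier the median was 0.270 for 7 MAPKs, 0.320 for 6 MAP2Ks, 0.370 for 5 MAP3Ks and 0.217 for 3 MAP4Ks. The tiers overlapped, and no test was made between them.

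**Figure D1:**
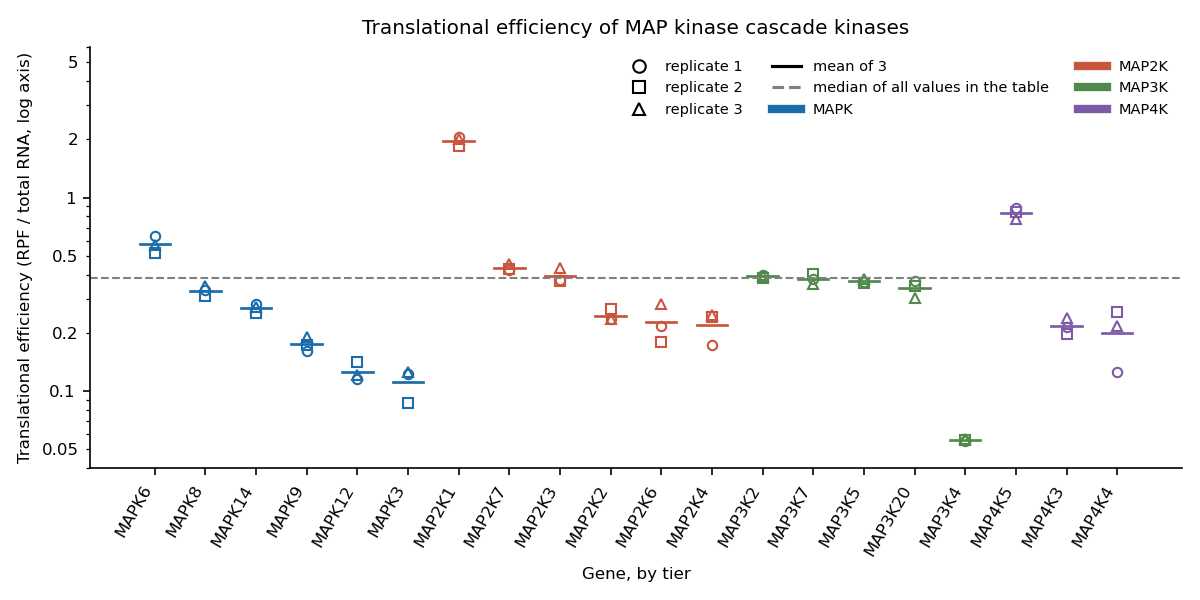
Translational efficiency (log axis) of 20 MAP kinase cascade kinases in replicates 1 to 3 (symbols) with their mean (bar), grouped by tier; the dashed line is the median of all values in the table. MAP2K1, MAP4K5 and MAPK6 stand farthest above the line, and MAP2K7 and MAP3K2 are also above it in every replicate. MAP3K4 is lowest, and 4 of 5 MAP3Ks sit close to the line.

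The ERK module held both the highest value of the cascade, that of MAP2K1, and the second lowest, that of MAPK3. MAP2K1 (MEK1; chr15:66679175-66783994, plus strand, GRCh37), which phosphorylates the ERK kinases, had a translational efficiency of 2.05, 1.85 and 2.00 in replicates 1 to 3, with a mean of 1.96 ± 0.105 (SD, n = 3). That was 2.33 ± 0.0553 (SE) on the log2 scale above the median of all genes (adjusted p = 2.44e-06, limma), at the 91.2nd percentile of the table. Its paralog MAP2K2 (MEK2; chr19:4090319-4124119, minus strand) acts on the same MAPKs and had values of 0.236, 0.265 and 0.237. Every replicate of MAP2K1 was above every replicate of MAP2K2, and the log2 difference taken within each replicate was 2.95 ± 0.167 (SD, n = 3).

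MAPK3 (ERK1; chr16:30125426-30134827, minus strand), a MAPK activated by MEK1 and MEK2, had 0.122, 0.0871 and 0.126, all below the median of the table. Its log2 difference from the median of all genes was -1.71 ± 0.111 (SE; adjusted p = 6.02e-05, limma), at the 9.38th percentile of the table. An exact permutation test of 3 values against 3 cannot give a two-sided p below 0.10, so none is given for pairs of genes.

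The sequence around the annotated start codon is shown for these 3 kinases and for MAP3K4, the kinase with the lowest translational efficiency, because the bases at -3 and +4 are the best known sequence feature of a start site. Capitals mark position -3, the ATG and position +4, counted from the A of the ATG as +1 (GENCODE 44 on GRCh37, 5′ to 3′).
MAP2K1: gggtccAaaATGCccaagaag
MAP2K2: ggagccCcgATGCtggcccgg
MAPK3: ggagtgGagATGGcggcggcg
MAP3K4: cgtgcaCggATGAgagaagcc
A purine at -3 together with G at +4 was present in MAPK3, and MAP2K1 had A at -3 without G at +4. MAP2K2 and MAP3K4 had neither A nor G at -3 and no G at +4. With MAP2K3 this held for 3 of the 28 kinases with a matched start context, and for 6.89% of all matched transcripts. Among these 28, whose transcript matched an annotated CDS of the same length, 16 had ANNATG and 15 had NNNATGG, where the ATG is the annotated start, read on the coding strand. Both letters together, ANNATGG, were in 10 of 28. The shares among 8615 matched transcripts were 45.3% for ANNATG, 53.5% for NNNATGG and 23.1% for ANNATGG.

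The p38 module lay at or below the middle of the table. MAPK14 (p38α) had 0.283, 0.253 and 0.273, with a log2 difference from the median of -0.49 ± 0.0553 (SE; adjusted p = 0.000543, limma). MAPK12 (p38γ) was lower still, at 0.115, 0.142 and 0.121. The 2 main activators of p38 differed from each other: MAP2K3 (MKK3) had 0.376, 0.372 and 0.432 and did not differ from the median of all genes (adjusted p = 0.636, limma), while MAP2K6 (MKK6) had 0.217, 0.179 and 0.284. MAP2K3 exceeded MAP2K6 in each replicate, by 0.79 ± 0.213 (SD, n = 3) on the log2 scale, and the ranges of the pair did not overlap. MAPK11 (p38β) was only in the occupancy table.

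In the JNK module both MAPKs were called lower than the median. MAPK8 (JNK1) had 0.332, 0.310 and 0.348, close to the middle of the table, and MAPK9 (JNK2) had 0.161, 0.173 and 0.190. MAPK8 was higher by 0.88 ± 0.103 (SD, n = 3) on the log2 scale. Their MAP2Ks lay apart in the same way: MAP2K7 (MKK7), which acts on JNK alone, had 0.422, 0.427 and 0.456, and MAP2K4 (MKK4), which acts on JNK and p38, had 0.174, 0.241 and 0.247. The log2 difference of MAP2K4 from MAP2K7 was -0.97 ± 0.234 (SD, n = 3). The call of MAPK8 did not hold without replicate 2 (adjusted p = 0.0736, limma), and that of MAP2K7 did not hold without replicate 2 (0.0712) or 3 (0.111).

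MAPK6 (ERK3), the only atypical MAPK listed, had 0.637, 0.519 and 0.568 and was called higher. Its value is uncertain, because 59.1% of the 30-base stretches of its CDS occur in transcripts of its pseudogenes MAPK6P1, MAPK6P3, MAPK6P4 and MAPK6P5. The same share was 35.3% for MAP2K2, 31.3% for MAP2K4 and 23.6% for MAP2K1, which share sequence with each other's gene or with pseudogenes. In all 4 genes the shared codons held as many reads as the others or more: 4.57 reads per codon against 3.78 in MAPK6, and 6.39 against 6.38 in MAP2K4. In MAP2K1 the 90 shared codons held 1889 reads and the 293 others 5602, and in MAP2K2 138 shared codons held 1795 and 252 others 2718. Where those reads came from was not tested.

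Of the MAP3Ks, MAP3K2 (MEKK2), MAP3K5 (ASK1) and MAP3K7 (TAK1) lay within 0.06 of the median on the log2 scale and did not pass the test. MAP3K2, which acts in the ERK5 pathway, had 0.397, 0.385 and 0.392. MAP3K20 (ZAK), a kinase of the ribotoxic stress response, had 0.369, 0.349 and 0.305 and also did not pass the test (adjusted p = 0.0686, limma), although it did without replicate 1 (0.0493). MAP3K4 (MEKK4; chr6:161412759-161538417, plus strand), which acts on the p38 and JNK pathways, was the exception: its values of 0.0552, 0.0563 and 0.0569 put it at the 1.48th percentile of the table. Its log2 difference from the median was -2.57 ± 0.0475 (SE; adjusted p = 1.53e-06, limma). The start codon context of MAP3K4 is the last of those printed above, and whether such contexts bear on translational efficiency was not tested.

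Among the MAP4Ks, MAP4K5 had 0.885, 0.844 and 0.774 and its closest relative MAP4K3, a kinase of the germinal centre kinase family, had 0.214, 0.197 and 0.240. The log2 difference of MAP4K3 from MAP4K5 was -1.90 ± 0.216 (SD, n = 3). MAP4K4 had 0.125, 0.257 and 0.217, the widest spread of the cascade kinases on the log2 scale (SD of 0.51, n = 3). Of 15 pairs of relatives that were considered, 6 had both genes in the table, and in each of the 6 the replicates of the pair did not overlap. How often unrelated genes lie apart in this way was not computed, and 89.3% of all genes were called in either direction. The count is therefore not read as a trait of relatives. When the 21 kinases were ordered by their mean, 13 of the 20 neighbouring pairs overlapped. Such neighbours are close because of the ordering, so they give no baseline for the relatives. MAP2K1, MAP4K5 and MAPK6 did not overlap their neighbours in this order, and further gaps lay below MAPK8 and between MAPK3 and MAP3K4. MAPK9 did not overlap its lower neighbour MAPK12, but MAP4K4 overlapped both, so the order has no break there. Neighbours that overlapped could not be ranked.

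The occupancy table combines the 3 libraries. Each value was resolved into whole in-frame reads of the 3 RPF libraries, which gave 80443 CDS reads, 868 5′UTR reads and 46 3′UTR reads for the 29 cascade kinases. MAP3K9 had the fewest CDS reads, 61, and MAP2K1 had 7550. The libraries are numbered within each transcript by what a read was worth, from the least to the most, and are not tied to replicate numbers. What a read was worth also gives the mRNA level used as the divisor, stated here relative to the median transcript. The 12 kinases that had only an occupancy (MAP2K5, MAP3K1, MAP3K3, MAP3K6, MAP3K8, MAP3K9, MAP3K11, MAP3K13, MAP3K14, MAP4K2, MAPK7 and MAPK11) had a median mRNA level of 0.214, and those with both measures had 1.47. MAPK4, MAPK10, MAPK13, MAPK15, MAP3K10 and MAP3K12 were not analysed here.

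CDS occupancy was highest for MAP2K3 (0.165 per codon) and MAPK14 (0.107), and lowest for MAP3K11 (0.00234), MAP3K9 (0.00587) and MAP4K2 (0.00790). The 3 libraries contributed 0.0514, 0.0566 and 0.0569 to the value of MAP2K3, and 0.000751, 0.000846 and 0.000738 to that of MAP3K11. The ranges of MAP2K3 and MAPK14 lay far above those of MAP3K11, MAP3K9 and MAP4K2. Of the 29 kinases, 12 were above the median transcript (0.0450) and 17 below it, with a median of 0.0389. The MAP2Ks had a median of 0.0871 and the MAPKs 0.0711, while the MAP4Ks had 0.0442 and the MAP3Ks 0.0218. MAP3K7, the catalytic kinase of the TAK1 complex, was the highest MAP3K with 0.0491. The mRNA levels of the tiers were closer, with medians of 0.871 for MAP2Ks, 1.13 for MAPKs, 0.754 for MAP4Ks and 0.779 for MAP3Ks.

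The MAP3Ks also have the longest coding regions, with a median of 898 codons against 380 for MAPKs and 400 for MAP2Ks. Over the 29 kinases CDS occupancy and CDS length had a Spearman coefficient of -0.728 (Pearson of the log2 values -0.626), and over all 9570 transcripts -0.280 (-0.273). These points share the libraries and, in part, related sequences, and the relation was not tested.

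The paralogs that differed in translational efficiency lay in the same order in CDS occupancy in the 5 pairs with both measures, which share the same libraries. For MAP2K1 and MAP2K2 the occupancy was 3.79-fold apart (0.0951 and 0.0251), where the translational efficiency was 7.99-fold apart. The contributions of the libraries did not overlap in this pair, with 0.0311 to 0.0321 for MAP2K1 and 0.00779 to 0.00913 for MAP2K2. MAP2K3 exceeded MAP2K6 by 2.37-fold and MAP2K7 exceeded MAP2K4 by 1.86-fold. MAP4K3 and MAP4K5, 3.84-fold apart in translational efficiency, had occupancies of 0.0442 and 0.0466, and their libraries overlapped.

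MAP2K2 had the most abundant mRNA of the cascade kinases, 4.88 times the median transcript. MAP2K1 stood at 2.20 and MAPK3 at 2.77. In the ERK MAP2K pair the gene with the higher mRNA level thus had the lower occupancy and translational efficiency. Both measures are taken relative to the RNA, so they are not independent of its level. The pair MAP2K4 and MAP2K7 had the same order. In MAP2K3 and MAP2K6, and in MAP4K5 and MAP4K3, the gene with more mRNA was higher in both measures, though the libraries of the latter pair overlapped in occupancy.

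**Figure D2:**
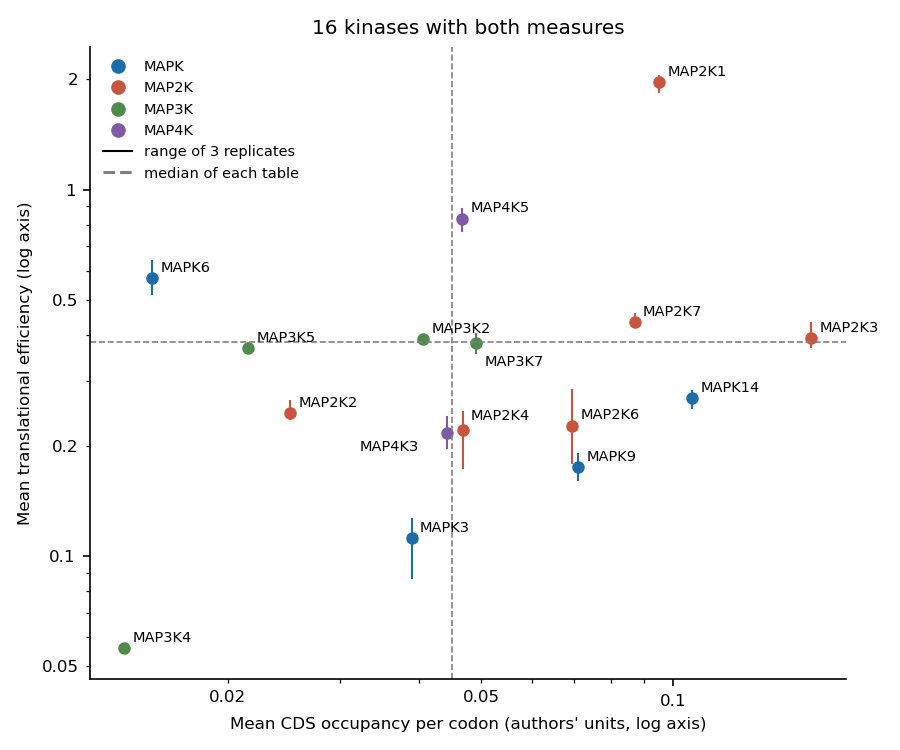
Mean translational efficiency against mean CDS occupancy per codon (both log axes) for 16 kinases with both measures, with the range of 3 replicates as a vertical line and the median of each table dashed. MAP2K1 is high in both, MAP3K4 is low in both, MAPK6 lies to the upper left, MAPK14 and MAPK9 to the lower right and MAP2K3 at the far right near the dashed line.

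Over the 17 kinases in both tables the Spearman coefficient between translational efficiency and CDS occupancy was 0.385, and over 6912 genes it was 0.688. The measures share the RPF and total RNA libraries, so the coefficient describes the tables and not a relation between independent measurements. MAPK6 had a translational efficiency 37.7 times its occupancy, the 97.4th percentile of all genes, and MAP2K3, MAPK9 and MAPK14 had 2.38, 2.46 and 2.52 times, at percentiles 4.67 to 5.71. The median of all genes was 7.72. No source used here gives the formula of the translational efficiency, and why the tables differ for these kinases was not tested.

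The distribution of ribosomes along the CDS differed widely among the kinases. The occupancy of the first 75 codons relative to the last 75 ranged from 0.0536 in MAP3K1 to 8.52 in MAP3K14. It was above 1 in 14 kinases and below 1 in 15, with a median of 0.980, and in 49.1% of all transcripts it was above 1. All 3 libraries were above 1 in 8 kinases and below 1 in 13, not counting MAP3K14 and MAPK11, which had a library with no read in the last window. The matching shares over all transcripts were not computed, so these counts are not read as a trait of the kinases.

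MAP3K1 (MEKK1; chr5:56111376-56191979, plus strand), which can act on both the JNK and ERK pathways, had 4, 2 and 3 reads within its first 75 codons in libraries 1 to 3, against 75, 52 and 45 within its last 75. MAP3K5 (ASK1), activated by oxidative stress, had 9, 6 and 4 against 74, 50 and 29. MAP3K6 (ASK2), which forms complexes with ASK1, had 3, 0 and 0 against 16, 19 and 6. In these 3 MAP3Ks every library had far fewer reads at the start than at the end. The same held for MAP2K7 (MKK7), with 67, 73 and 24 against 381, 334 and 210.

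The opposite distribution was seen in MAP3K14, MAP3K3 and MAP2K5. MAP3K3 (MEKK3) had 85, 74 and 53 reads at the start against 15, 20 and 12 at the end, with a combined ratio of 4.43. MAP2K5 (MEK5), the kinase of ERK5, had 79, 49 and 47 against 25, 17 and 8. Its first 30 codons alone were low, with 22 of 896 CDS reads and an occupancy of 0.347 relative to the whole CDS. MAP3K14 (NIK), of the non-canonical NF-κB pathway, had 15, 12 and 12 against 4, 2 and 0, on few reads in all. The other kinases of the ERK5 pathway did not share it. MAP3K2 (MEKK2) had 103, 57 and 49 against 128, 119 and 87, below 1 in each library with a combined ratio of 0.603, and ERK5 itself, MAPK7, had 15, 9 and 11 against 15, 11 and 9, which is near 1.

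MAPK3 (ERK1) was low at the start as well, with 241, 222 and 127 reads in its first window against 413, 346 and 219 in its last. Between these windows the MEK pair had the opposite distribution, with ratios of 2.00, 2.02 and 2.04 in MAP2K1 and 2.16, 2.08 and 1.93 in MAP2K2. The ratios of the pair were close to each other although their translational efficiencies were far apart. In MAPK3 the first 30 codons held 19 of 3734 reads, an occupancy of 0.0604 relative to the whole CDS. The MEK pair was also low in the first 30 codons, with 0.573 in MAP2K1 and 0.230 in MAP2K2. The lowest were MAP3K4 (0.0115) and MAP3K1 (0.0141), each with 1 read in its first 30 codons. Among the 29 kinases, 21 had less occupancy in the first 30 codons than in the whole CDS, and 68.5% of all transcripts did. The median was 0.573 for the kinases and 0.639 for all transcripts.

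**Figure D3:**
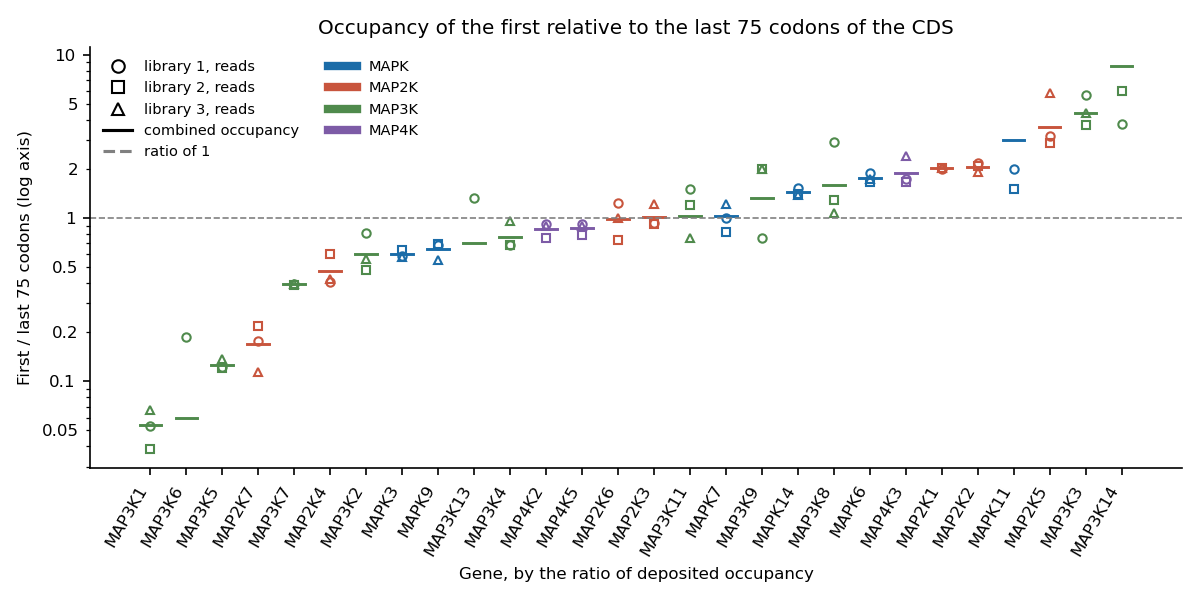
Ratio of the first to the last 75 codons (log axis) of the CDS for 28 kinases, as reads in each of the 3 libraries (symbols) and as combined occupancy (bar); a library with 0 reads in either window has no symbol. MAP3K1, MAP3K6 and MAP3K5 are lowest and MAP3K14, MAP3K3 and MAP2K5 highest.

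The base composition of the windows moved with this ratio. In MAP3K1 the GC content was 77.8% at the start and 42.2% at the end. MAP3K6 had 81.3% and 56.4% and MAP3K5 71.6% and 41.3%. In MAP3K3 and MAP2K5 it was lower at the start, with 49.8% against 56.9% and 42.7% against 55.6%. The 3 kinases lowest at the start were also those with the largest fall in GC content.

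**Figure D4:**
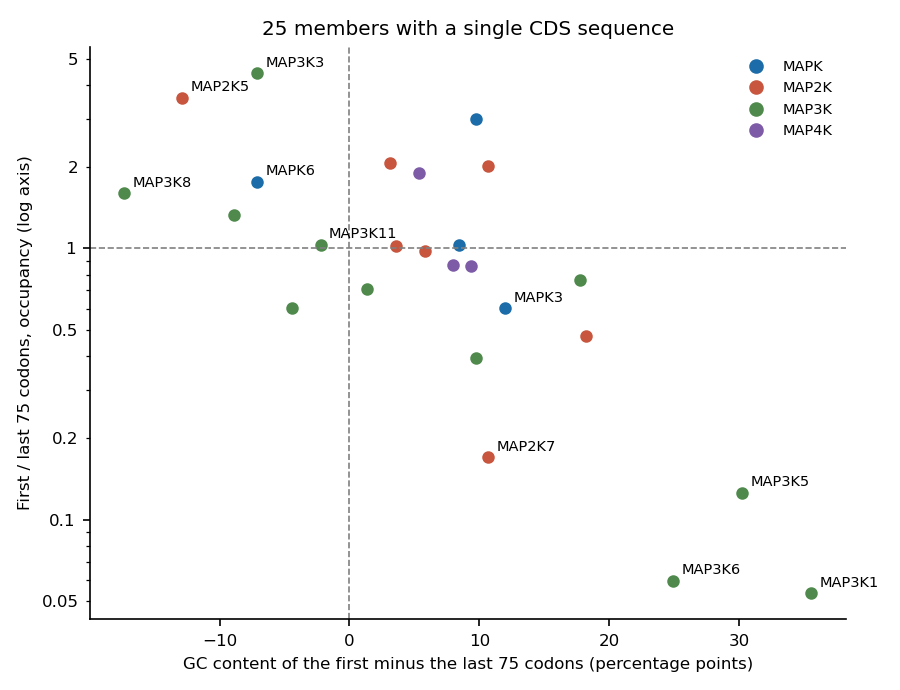
Ratio of the first to the last 75 codons (log axis) against the difference in GC content between the same windows, in percentage points, for 25 kinases with a single annotated CDS sequence. MAP3K1, MAP3K5 and MAP3K6 lie at the lower right and MAP3K3, MAP2K5 and MAP3K8 at the upper left.

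Over 26 kinases the difference in GC content and the log2 ratio had a Pearson coefficient of -0.767 and a Spearman coefficient of -0.690. Over 8337 transcripts the coefficients were -0.582 and -0.561. The values share the libraries and their preparation, and whether composition acted on the ribosomes or on the recovery of fragments was not tested.

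The share held by a single codon was small in all kinases but MAPK11. The highest codon held a median of 3.89% of the CDS occupancy, and 4.95% in all transcripts. The lowest shares were in the long MAP3Ks, with 1.14% in MAP3K4, 1.43% in MAP3K5 and 1.95% in MAP3K1. MAPK11 (p38β; chr22:50702142-50709196, minus strand) was far apart, with 43.1% of its occupancy at codon 195, the 99.7th percentile. That codon held 13, 19 and 15 reads in libraries 1 to 3 of 28, 52 and 30 CDS reads, and was the highest codon in each. As reads the share was 44.3% ± 6.97 (SD, n = 3 libraries). None of the 30-base stretches of the MAPK11 CDS occurs in a transcript of another gene. The next highest were MAP3K9 (7.40%), on 4 reads, and MAP2K6 (6.58%).

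The codon of MAPK11 is shown in capitals within 27 bases, because no other kinase had so much of its occupancy at a single position.
MAPK11: cctgagatcatgCTCaactggatgcat
It is a CTC codon at position 195 of 365. MAPK11 had an mRNA level of 0.0466 times the median transcript and 110 CDS reads in all, so that its high CDS occupancy (0.0736) rests on few reads.

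In the 5′UTR the kinases had a median of 0.462% of their in-frame reads, and all transcripts had 0.378%. Pooled, the share was 1.07% for the kinases and 1.15% for all transcripts. No read was found in the 5′UTR of 6 kinases, which at 3734 CDS reads allows a share of up to 0.0803% in MAPK3 and at 110 reads of up to 2.73% in MAPK11. The others without one were MAP2K4, MAP2K5, MAP3K1 and MAP4K2. Such limits cover counting error only.

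MAP3K13 (LZK; chr3:185000729-185206882, plus strand), a MAP3K that activates JNK, was at the other end. It had 102, 65 and 56 reads in its 5′UTR and 37, 30 and 17 in its CDS in libraries 1 to 3, a 5′UTR share of 72.8% ± 4.17 (SD, n = 3 libraries), at the 99.8th percentile. The reads were concentrated: codon -64, counted back from the start codon, held 107 and codon -63 held 70, and the codons from -64 to -59 held 200 of 223. Its mRNA level was 0.0438 times the median transcript. The annotated transcripts of MAP3K13 differ in sequence there, so no sequence is shown.

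MAP3K11 (MLK3) had 9, 8 and 6 reads in its 5′UTR and 56, 50 and 31 in its CDS, a share of 14.6% ± 1.38 (SD, n = 3 libraries). MAP3K8 (COT, also TPL2), which activates MEK1, had 11, 14 and 9 against 159, 98 and 70, a share of 10.1% ± 3.21. Both shares are well above that of the median transcript in every library. MAPK6 followed with 182 reads (5.56%), of which 67 lay at codon -214. The share also depends on 5′UTR length and CDS occupancy. The 5′UTRs of MAP3K11, MAP3K8 and MAPK6 are long, at percentiles 91.6, 95.4 and 97.9 of all transcripts. Their CDS occupancy lay at percentiles 0.387, 31.8 and 12.4, and their 5′UTR occupancy per codon at 56.8, 82.2 and 59.98. The shares of MAP3K11 and MAPK6 thus do not show a raised 5′UTR occupancy.

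**Figure D5:**
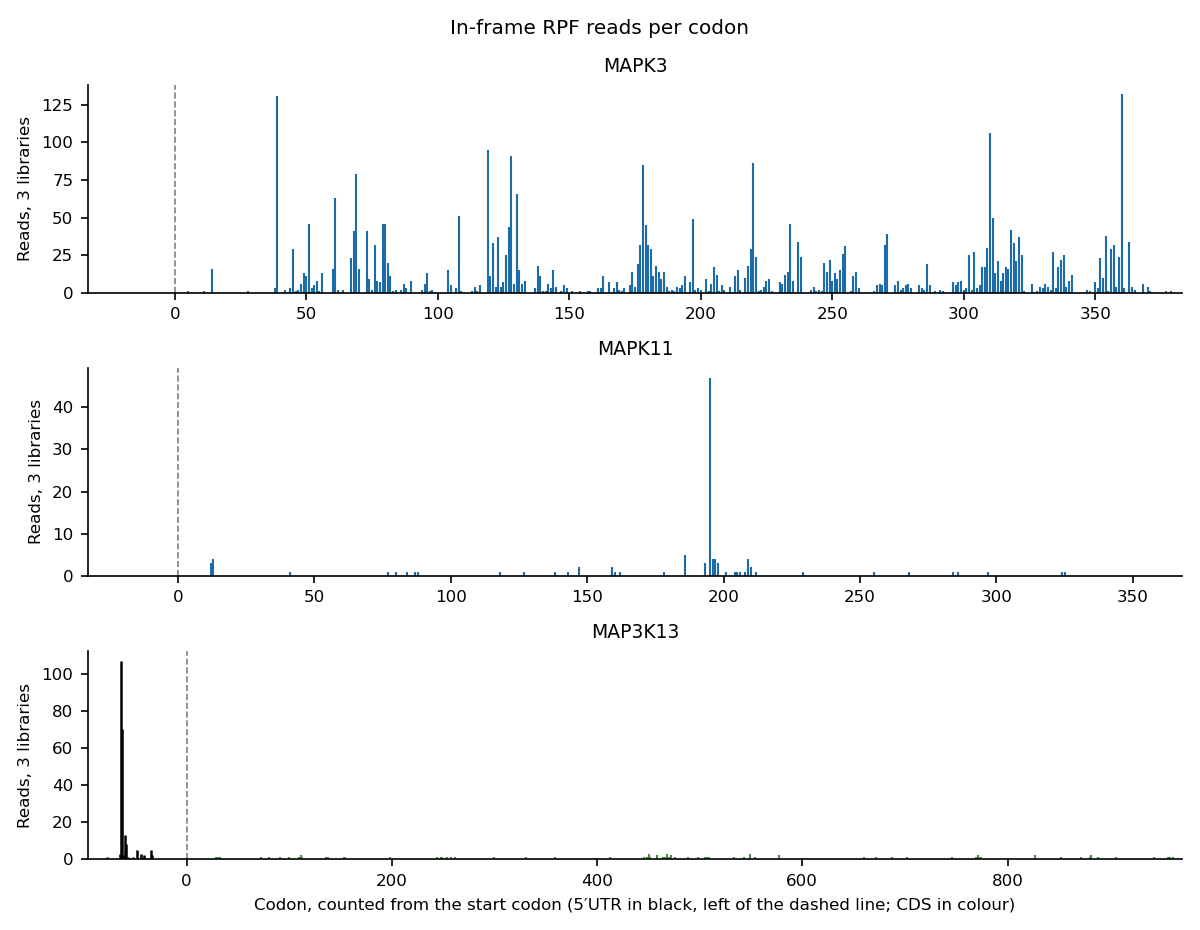
In-frame RPF reads per codon, summed over the 3 libraries, along the 5′UTR (black, negative codons) and CDS (colour) of MAPK3, MAPK11 and MAP3K13; each panel has its own vertical axis from 0. MAPK3 has few reads in its first 30 codons, MAPK11 has its peak at codon 195 and most reads of MAP3K13 lie in the 5′UTR.

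In several kinases many of the 5′UTR reads lay at a single codon or at a few neighbouring codons. The highest codon is shown in capitals in 27 bases of the annotated transcript, in the frame of the CDS.
MAPK14: ggctgccgctggAAAatgtctcaggag
MAP3K7: gcgccgcgagggATCatgtctacagcc
MAP3K2: cataaagaatgcTGAtgggagaaccat
MAP2K6: aactccacttgcATGaagattgcacgc
In MAPK14 and MAP3K7 the codon next to the start codon was highest, with 21, 11 and 10 reads and with 12, 3 and 6 reads. In MAP3K2 all 62 reads lay in codons -19 to -16, with 10, 11 and 3 at a TGA triplet at codon -17. In MAP2K6 the highest codon was itself an ATG, at codon -36, with 7, 3 and 2 reads. The first stop triplet in this frame is at codon -22, and the stretch from the ATG to it held 15 of the 23 reads of the 5′UTR. The 5′UTR used for the deposited table may differ from the annotated one farther upstream, so these positions rest on the sequence next to the start codon being the same.

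Of 79 other genes of the pathway that were listed, 50 had a translational efficiency, and 17 of these were called higher and 24 lower than the median of all genes, where 44.7% of all genes were called higher and 44.6% lower. The counts by group below are small and are read against these shares, since 89.3% of all genes were called in either direction. All 7 substrate kinases with a value were called lower, from MAPKAPK3 at 0.0672, 0.0526 and 0.0539 to MAPKAPK2 at 0.353, 0.316 and 0.296. Both act below p38. Among 10 upstream GTPases, adaptors and RAF kinases, 5 were higher and 4 lower. RAC1, a small GTPase that leads to JNK, was highest at 5.20, 5.09 and 5.77, and the adaptor SHC1 was lowest at 0.0774, 0.0596 and 0.0943.

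Of 12 scaffolds, 4 were higher and 5 lower, close to the shares over all genes. LAMTOR3 (MP1), which holds MEK1 and ERK1 at late endosomes, was highest at 1.95, 2.06 and 1.83, and its partner LAMTOR1 was lowest at 0.0355, 0.0525 and 0.0597. Of 8 phosphatases, 2 were higher and 2 lower, between PPM1A at 0.768, 0.749 and 0.777 and DUSP9, a phosphatase of ERK, at 0.120, 0.133 and 0.141. Of 13 transcription factors, 6 were higher and 6 lower, with JUN, a substrate of JNK, highest at 1.66, 1.64 and 1.499. No group was tested as a whole.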

How the data were processed

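Ribosome profiling and total RNA libraries (3 each) were made from HEK293 cells. The submitters' processing notes name cutadapt 1.16, Bowtie 1.1.2, TopHat2 2.1.1, HTSeq 0.9.1 and hg19. According to the study's methods, PCR duplicates were removed by molecular identifiers and RPFs of 28 to 30 nt were placed with an offset of 13 nt. The authors deposited translational efficiency as a linear ratio per gene and replicate, and no source used here gives its formula. They also deposited occupancy per codon, with the replicates combined, as RPF counts normalised to library size and divided by TPM.

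Kinases were found by symbol. Members, gene lists and tests were chosen with earlier results of these data known. Each gene was tested against the median of all values with limma 3.58.1 (R 4.3.3) on log2(value + 0.01) over all 8121 genes, with Benjamini-Hochberg adjustment and no filter on low values. The fit took RPF and total RNA of the same number as paired, since the ratio is formed within each pair. Each occupancy value was resolved into a sum of whole reads of the 3 libraries, each library having a fixed worth of a read per transcript. Steps were found in 9556 of 9570 transcripts (99.9%), and all values of the kinases came out whole within a relative tolerance of 1e-11. Both scripts were tested on simulated data. For 31 transcripts, none of them a kinase of the cascade, the record was broken over lines and rejoined. Start contexts, GC content and shared 30-mers came from GENCODE 44 on GRCh37, matched by symbol and CDS length for 28 of 29 kinases (MAP3K14 had no match). Windows were of 75 codons. The genes described in each replicate are those of the ERK, p38, JNK, ERK5 and atypical modules, the paralog pairs and the extremes of each tier. In the occupancy table they are the 3 highest and 3 lowest of each measure, and other codons and kinases were named after their values were seen. Some genes that these rules take are not reported here. Alternatives were other pseudocounts, each replicate left out, a replicate block, a minimum of 100 in-frame reads, other windows and the median over codons. Python 3.11.15, numpy 2.4.6, pandas 2.3.3 and numba 0.67.0 were used.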

Additional observations from a re-analysis of the deposited data

How the results depend on the processing

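The number of cascade kinases called higher or lower stayed within 1.5 times under every alternative: 4 to 5 higher and 10 to 12 lower with each replicate left out, and 5 and 11 under other pseudocounts. The replicate block, which removes each replicate's own median, gave 5 higher, 11 lower and 7265 genes called in all, against 7249, and changed the call of no kinase. Of 136 values recomputed for single kinases, 130 kept direction and call. With each replicate left out, MAP2K3 ranged from -0.025 to 0.065 and MAP3K7 from -0.056 to 0.043 on the log2 scale, both changing sign without replicate 3 and neither called under any setting run.

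The setting of at least 100 in-frame reads kept the 17 of 21 kinases that had an occupancy, the lowest with 542 CDS reads. It dropped MAPK8, MAPK12, MAP3K20 and MAP4K4 because they had no occupancy, and removed no kinase for low reads. The median translational efficiency was then 0.370 (0.330 with all), and with each replicate left out from the full set 0.321 to 0.337. With a pseudocount of 0.1 the log2 differences became 2.58 for MAP2K1 and MAP2K2, 0.65 for MAPK8 and MAPK9 and -1.56 for MAP4K3 and MAP4K5, as a larger pseudocount shrinks ratios of low values. With each replicate left out they ranged from 2.89 to 3.04, 0.82 to 0.92 and -2.02 to -1.82, and from 0.68 to 0.89 for MAP2K3 and MAP2K6 and -1.05 to -0.83 for MAP2K4 and MAP2K7. The genes called in all numbered 7015 to 7091. The median over codons gave a CDS occupancy of 0.00567 for the kinases in place of 0.0389, because many codons hold no read. The median ratio of the first to the last codons was 0.667 with windows of 50 codons and 0.902 without the 5 codons at either end, against 0.980, and 23 of 29 kinases stayed on the same side of 1. Kinases with few reads, such as MAP3K9 with 61, limit what can be read from single codons.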
